A study of Mus musculus with 20 samples.

Results

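The nuclear-encoded subunits of oxidative phosphorylation (OXPHOS) were examined in liver and kidney RNA. Members were the protein-coding genes of the deposited count table whose GENCODE symbols belong to the Ndufa, Ndufab, Ndufb, Ndufc, Ndufs and Ndufv series, Sdha to Sdhd, the Uqcr genes, Cox4 to Cox8 and the Atp5 genes. They were 90 of 57010 genes (21664 of them protein-coding), with 38 assigned to complex I, 4 to complex II, 8 to complex III, 21 to complex IV and 19 to complex V. Left out were 13 processed pseudogenes, 5 transcribed processed pseudogenes and 1 long noncoding RNA that match the symbols. Ndufa4, first described as a complex I subunit and since assigned to complex IV, and its paralogue Ndufa4l2 were counted with complex IV.

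The mice were 12-month-old males of the UM-HET3 stock, a genetically heterogeneous cross in which littermates differ in genotype. The 7c group received repsox, tranylcypromine, DZNep, CHIR99021, forskolin and TTNPB at 0.1 mg/kg/day each, plus valproate at 1 mg/kg/day. The control group received the vehicle alone, 50% DMSO and 50% PEG300, and both groups carried subcutaneous osmotic minipumps for 28 days. Polyadenylated RNA was sequenced from 6 livers and 6 kidneys with 7c and from 4 livers and 4 kidneys with vehicle. The comparisons ask whether 28 days of 7c moved OXPHOS transcripts in either tissue and, in vehicle mice, how the subunits and their tissue isoforms differ between liver and kidney.

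Complexes I to IV form the respiratory chain, which passes electrons from NADH and succinate to oxygen and pumps protons across the inner mitochondrial membrane, and complex V uses the proton gradient to make ATP. Each complex is built from many nuclear-encoded subunits, joined in complexes I, III, IV and V by a few subunits encoded in mitochondrial DNA. Several complex IV subunits exist as paralogous isoforms, one used in most tissues and another best known from heart and skeletal muscle (Cox6a2, Cox7a1, Cox8b), testis (Cox6b2, Cox7b2, Cox8c), or lung and cells that respond to low oxygen (Cox4i2, Ndufa4l2). Liver and kidney both respire heavily, the kidney mainly in the tubule cells that reabsorb salt and solutes.

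Total counts per library were 28383359 to 34153084 in liver and 27855849 to 64872451 in kidney. The 90 members took a median of 1.30% of all counts in vehicle livers (1.24 to 1.396%) and 2.23% in vehicle kidneys (2.14 to 3.05%). In 7c livers the median was 1.31% (1.21 to 1.57%) and in 7c kidneys 2.46% (2.16 to 3.08%). Hepatocyte markers summed to 70887 to 102496 CPM (counts scaled to library size) in livers and 2113 to 2935 CPM in kidneys. Proximal tubule markers summed to 9917 to 11669 CPM in kidneys and to at most 1.65 CPM in livers. A gene was kept in a tissue when 50% or more of its libraries held 10 counts or more, and by this filter 82 members passed in liver and 85 in kidney, with 82 in both. Cox4i2, Cox6a2 and Cox6b2 passed in kidney only, and Ndufb11b, Cox7b2, Cox8b, Cox8c and a second annotated entry of Atp5po passed in neither. That second Atp5po entry, of 530 exonic bases, held 0 counts in every library. In bulk tissue, fewer cells of a type and less RNA per cell cannot be told apart.

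Some libraries stood apart from the others of their own group across most members. For each library, the deviation of each member's log2 CPM from the mean of its tissue was taken, and the median over members summarised it. In kidney, the library vehicle replicate 2 had a median deviation of 0.58 and 7c replicate 5 of 0.62, and the other 8 kidneys lay between -0.34 and 0.20. Those 2 kidneys held the highest value in 39 and 37 of 85 members, more than the other 8 kidneys together. The shift was shared by other gene groups. Other protein-coding genes with a transcript under 1 kb had medians of 0.50 in vehicle replicate 2 and 0.58 in 7c replicate 5, cytosolic ribosomal protein genes had 0.68 and 0.67, and genes over 5 kb had -0.20 and -0.21. The mtDNA-encoded subunits had 0.12 and -0.67 there. In liver, 7c replicate 3 was the highest in 52 of 82 members (median deviation 0.29) and 7c replicate 2 the lowest in 49 (median deviation -0.26). Collecting duct markers (2 genes) were highest in the 2 kidneys that stood apart, at 319 CPM in vehicle replicate 2 and 367 CPM in 7c replicate 5 against 101 to 259 CPM in the others. Thick ascending limb markers (2 genes) were lowest there, at 2182 and 2021 CPM against 2364 to 3275 CPM. The part of transcript length and of these cell types in the shifts was not tested.

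**Figure D1:**
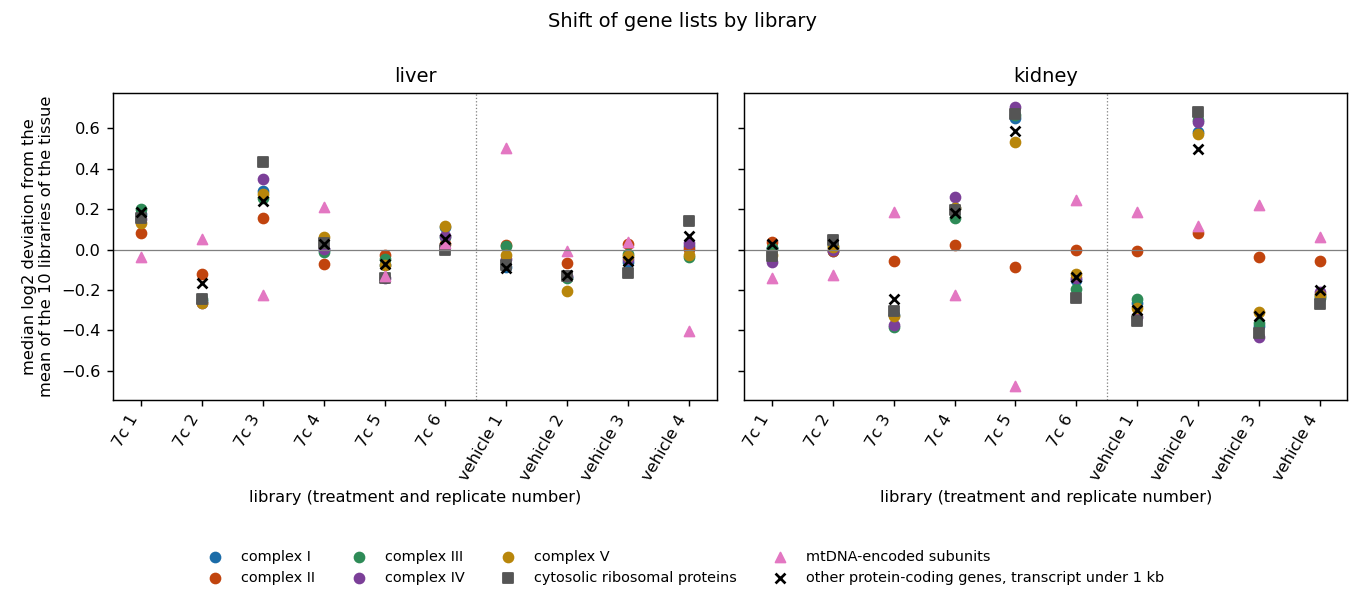
Median deviation of OXPHOS members from the tissue mean (log2 CPM) in each library, with livers and kidneys and the 7c and vehicle groups marked. Kidney 7c replicate 5 (0.62) and kidney vehicle replicate 2 (0.58) lie above the other kidneys, which span -0.34 to 0.20.

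Within groups the members varied differently by complex. The median SD of log2 CPM among libraries of a group was 0.19 over members in liver against 0.30 over all genes, and 0.40 over members in kidney against 0.35. In kidney, complex II had a median SD of 0.092 and complex IV of 0.46. Complex II has only 4 members, and their SDs ran from 0.083 to 0.355, the highest being that of Sdhb. The steadiest kidney members were Atp5f1a, the catalytic-head alpha subunit (SD 0.045), Uqcrfs1, the Rieske iron-sulfur protein of complex III (SD 0.057), and Sdhd, a membrane anchor of complex II (SD 0.083). Uqcrfs1 lay at 138 to 148 FPKM (scaled counts per kilobase of transcript) in the 6 7c kidneys, with a mean of 144 ± 3.9 (SD, n = 6), and at 145 ± 8.1 (SD, n = 4) in the vehicle kidneys. The kidneys that stood apart were its highest, at 153 FPKM in vehicle replicate 2, and its lowest, at 138 FPKM in 7c replicate 5. FPKM divides counts by the length of the gene's Ensembl canonical transcript, which allows levels to be compared between genes only as far as that transcript is the one expressed.

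Per length, the beta subunit of the ATP synthase head, Atp5f1b, where ATP is made, was the highest member in both tissues, and per coding kilobase it ranked 2 of 18 in complex V in liver and 1 in kidney. It measured 930 ± 25 FPKM in vehicle livers (SD, n = 4) and 1561 ± 195 FPKM in vehicle kidneys (SD, n = 4). Its partner Atp5f1a was next in complex V, at 544 ± 37 FPKM in liver and 721 ± 22 FPKM in kidney (4 of 18 per coding kilobase in both). The lowest complex V members in kidney per transcript length were Atp5mk (34.9 ± 9.0 FPKM) and Atp5po (22.1 ± 15 FPKM). Per coding kilobase Atp5mk ranked 9 of 18 there and Atp5po 18. In complex IV, Cox6a1 led per transcript length in both tissues (per coding kilobase it ranked 2 of 15 in liver, after Cox6c, and 1 of 18 in kidney), with 668 ± 114 FPKM in liver and 915 ± 525 FPKM in kidney. It was followed by Ndufa4 in liver (612 ± 20 FPKM) and by Cox4i1 in kidney (726 ± 295 FPKM). Both leading kidney genes were measured in the same libraries and were highest in vehicle replicate 2, so these SDs do not judge their order.

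In complex III, Uqcr10 led (268 ± 37 FPKM in liver, 427 ± 215 in kidney), ahead of the core protein Uqcrc1 (189 ± 7.5 and 294 ± 104), and Uqcr11 was lowest (54.4 ± 9.6 and 45.1 ± 23). This order rests on the transcript lengths, since per coding kilobase Uqcr11 ranked 2 of 8 in liver and 3 in kidney, and Uqcrc1 8 and 6. In complex II, Sdha, the flavoprotein that oxidises succinate, was at 272 ± 18 FPKM in liver and 225 ± 14 in kidney. Sdhd followed, at 221 ± 9.1 FPKM in liver and 165 ± 3.0 in kidney, and the SDs of Sdhb and Sdhc overlapped in each tissue. Per coding kilobase the order was another, with Sdha 3 of 4 in liver and 4 in kidney, and Sdhd 1 and 2. In complex I the highest were Ndufa6 (229 ± 21 FPKM) and Ndufb10 (208 ± 29) in liver, and Ndufv1, which binds NADH (234 ± 86), and Ndufa3 (208 ± 130) in kidney. Per coding kilobase Ndufa6 ranked 2 of 37 and Ndufb10 5 in liver, and Ndufv1 10 and Ndufa3 2 in kidney, with Ndufa1 first in both. The lowest was Ndufb2 in both tissues, at 2.30 ± 0.28 and 2.15 ± 0.65 FPKM. The canonical Ndufb2 transcript has 4389 bases, of which 315 code, so that level depends strongly on the transcript chosen. Its rank was also low per coding kilobase, at 36 of 37 in liver and 37 in kidney. Ndufb8 was the other low complex I member per transcript length in liver (15.1 ± 1.4 FPKM) and Ndufs4 in kidney (17.7 ± 5.9 FPKM). Per coding kilobase Ndufb8 ranked 37 of 37 in liver and 36 in kidney, and Ndufs4 ranked 30 in kidney.

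**Figure D2:**
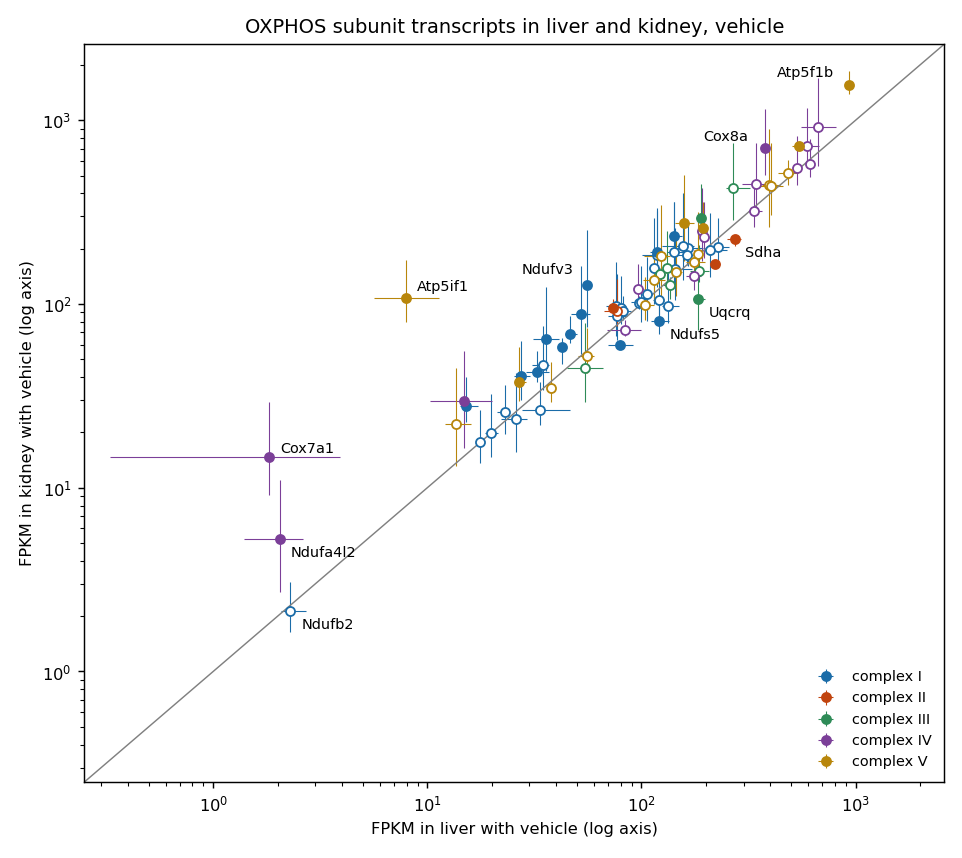
Mean FPKM of each member in vehicle livers (x axis, log scale) and vehicle kidneys (y axis, log scale), n = 4 each, for the 82 members that passed in both tissues. Bars run from the lowest to the highest library and filled points were called by edgeR. Atp5f1b is at the top right and Atp5if1 lies farthest to the kidney side of the diagonal among the members called.

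Between vehicle liver and vehicle kidney, 30 of the 85 members tested (35.3%) differed by edgeR's quasi-likelihood test at an adjusted p under 0.05, against 57.9% of all 18598 genes tested. Of these, 25 were higher in kidney and 5 in liver, where the background shares were 31.0% and 26.8%. Cox4i2, Cox6a2 and Cox6b2 entered the test only through the kidney, where they are high, and without them 27 members were called, 22 of them higher in kidney. The median log2 fold change of liver over kidney was -0.25 over members and -0.11 over all genes. Every vehicle kidney lay above every vehicle liver for 22 members (28.2% of all genes) and every liver above every kidney for 4 (23.8% of all genes). When replicate number 2 of vehicle, in both tissues, was left out, 20 members were called (23.5%, against 54.5% of 18365 genes), 10 in each direction. Of all genes in that fit, 5337 were called higher in kidney and 4680 in liver. The median became 0.054 over members and -0.084 over all genes. All 30 kept their direction, 14 were called again, and 6 members newly called were higher in liver (Cox7b, Ndufa7, Ndufb1, Ndufs6, Uqcr11 and Uqcrb). Of the 27 that passed the filter in both tissues, 10 were called in each of the 16 alternative settings: Ndufb4, Ndufb8, Ndufs1, Ndufv3, Sdhc, Sdhd, Cox8a, Atp5f1a, Atp5f1b and Atp5if1.

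The inhibitor of complex V had the lowest p of the members tested. Atp5if1 encodes the small protein that binds ATP synthase and stops it from running backwards, and in vehicle livers it measured 7.25, 7.46, 5.66 and 11.3 FPKM. The vehicle kidneys measured 82.9, 174, 79.7 and 95.2 FPKM. Every kidney was above every liver, and kidney replicate 2 was the highest. The log2 fold change of liver over kidney was -3.77 (SE 0.30), 13.6-fold higher in kidney, with an edgeR adjusted p of 3.14e-10. Of its exon bases, 59.6% lie in a long noncoding RNA on the other strand, Gm12999, which had 0 counts in vehicle livers and 1 to 8 in vehicle kidneys. Leaving out each replicate number in turn kept the call, with log2 values between -4.04 and -3.40 over all alternatives.

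Of the 5 subunits of the head of ATP synthase, the part that makes ATP, 4 were called and higher in kidney, where 31.0% of all genes were. Without vehicle number 2, 2 of the 5 were called, and Atp5f1e, not called in either fit, went from -0.18 to 0.45. Atp5f1b measured 941, 960, 909 and 910 FPKM in vehicle livers. Vehicle kidneys held 1518, 1843, 1396 and 1487 FPKM. The tissues did not overlap, and its log2 fold change was -0.75 (SE 0.13, edgeR adjusted p = 3.36e-05), 1.68-fold higher in kidney. Atp5f1a followed with a log2 fold change of -0.41 (edgeR adjusted p = 0.00384). Atp5f1c (-0.43) and Atp5f1d (-0.80) were called too, and both lost the call without vehicle number 2. None of the 3 genes of the c ring, which turns in the membrane, and none of the 4 genes of the peripheral stalk, which holds the head still, was called. Atp5mj, a small subunit of complex V, was higher in kidney (log2 fold change -0.49, adjusted p = 0.0258 by edgeR) and also lost the call without vehicle number 2.

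Complex I had 10 of 37 members called higher in kidney and 2 higher in liver, where 31.0% and 26.8% of all genes were, and 4 and 5 without vehicle number 2. Its 7 core subunits, which carry the electron path, all had a negative log2 fold change, and 3 of them were called, or 1 without vehicle number 2. Ndufs1, the large iron-sulfur subunit, measured 44.2, 41.5, 44.1 and 41.3 FPKM in vehicle livers. Kidneys with vehicle measured 65.1, 47.0, 63.2 and 56.7 FPKM, so every kidney was above every liver even though kidney replicate 2 was the lowest. Its log2 fold change was -0.44 (SE 0.12, edgeR adjusted p = 0.00330). Ndufv1 (-0.73, edgeR adjusted p = 0.00657) and Ndufs8 (-0.70, adjusted p = 0.0181) were called by the same test but not without vehicle number 2.

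Among the accessory subunits of complex I, Ndufv3 measured 53.1, 55.2, 55.9 and 57.5 FPKM in vehicle livers. The 4 vehicle kidneys measured 82.1, 251, 74.6 and 101 FPKM, with replicate 2 far above the other kidneys and all 4 above the livers. The log2 fold change was -1.20 (SE 0.31, edgeR adjusted p = 0.00244), and it was -0.62 without vehicle number 2, still called. Ndufb4 had a log2 fold change of -0.56 and Ndufb8 of -0.88, and both were called in all 16 alternatives. For Ndufb8, 68.6% of the exon bases lie in another gene of the same strand, Gm20538, so its counts could be split. Ndufab1, the mitochondrial acyl carrier protein, had -0.38 and was called with edgeR at an adjusted p of 0.0150, a call lost in 3 alternatives, while Ndufa10, Ndufa11 and Ndufa13 (-0.57, -0.85 and -0.76) were called and lost the call without vehicle number 2.

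The members of complex I higher in liver were Ndufb6 and Ndufs5. Ndufb6 measured 69.5, 71.4, 91.3 and 86.6 FPKM in vehicle livers. The vehicle kidneys measured 58.4, 63.5, 56.7 and 60.8 FPKM, below every liver, with a log2 fold change of 0.41 (SE 0.13, edgeR adjusted p = 0.0120), a call lost without vehicle number 3 or 4 (edgeR adjusted p up to 0.0941). Ndufs5 measured 110 to 134 FPKM in vehicle livers and 68.6, 108, 72.1 and 74.9 FPKM in vehicle kidneys, where replicate 2 came close to the livers without reaching them. Its log2 fold change was 0.58 (SE 0.19, adjusted p = 0.0141 by edgeR), and 0.80 without vehicle number 2. The call was lost without vehicle number 1, 3 or 4 (edgeR adjusted p up to 0.0821).

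Complex II split by subunit. The catalytic subunit Sdha measured 293, 276, 270 and 250 FPKM in vehicle livers. Vehicle kidneys held 238, 207, 233 and 223 FPKM, all below the livers, with a log2 fold change of 0.27 (SE 0.10, edgeR adjusted p = 0.0280), a call lost in 7 of 16 alternatives. The membrane anchors moved apart in sign. Sdhd measured 225, 211, 217 and 232 FPKM in livers. It measured 165, 169, 165 and 162 FPKM in kidneys, with a log2 fold change of 0.42 (SE 0.11, edgeR adjusted p = 0.00226). Sdhc, its partner anchor, measured 75.1, 71.5, 73.3 and 73.5 FPKM in livers. In kidneys it measured 94.0, 106, 90.3 and 90.2 FPKM, and the log2 fold change was -0.38 (SE 0.10, edgeR adjusted p = 0.00224). The libraries of the tissues did not overlap for either anchor, and both calls held in all 16 alternatives. Sdhb, the iron-sulfur subunit, measured 66.9 to 83.4 FPKM in livers and 75.7, 138, 75.7 and 76.1 FPKM in kidneys, and it was not called (log2 fold change -0.24, SE 0.19).

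In complex III, Uqcrc1 was higher in kidney (log2 fold change -0.63, SE 0.20, edgeR adjusted p = 0.0114) and lost the call without vehicle number 2. Uqcrq, a small subunit of the membrane part, measured 177, 174, 187 and 199 FPKM in vehicle livers. In vehicle kidneys it measured 80.6, 190, 71.9 and 84.6 FPKM, so that replicate 2 lay among the livers and the others at under 85 FPKM. Its log2 fold change was 0.78 (SE 0.30, edgeR adjusted p = 0.0307) with all libraries and 1.25 without vehicle number 2. The call was lost when vehicle number 1, 3 or 4 was left out (edgeR adjusted p up to 0.136). The core protein Uqcrc2 (0.10) and the Rieske protein Uqcrfs1 (-0.25, edgeR adjusted p = 0.0518) were not called.

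Complex IV had 7 of 18 tested members higher in kidney and none higher in liver by edgeR (31.0% and 26.8% of all genes), with 8 members at an unadjusted p under 0.05 (61.8% of all genes). Leaving aside the 3 that passed the filter in kidney only, 4 of 15 were called. Without vehicle number 2, of the 18, 2 were higher in kidney and 1 in liver. Of the isoforms used in most tissues, only Cox8a was called. It measured 376, 376, 371 and 383 FPKM in vehicle livers. In vehicle kidneys it measured 544, 1148, 502 and 639 FPKM, above every liver, and its log2 fold change was -0.91 (SE 0.22, edgeR adjusted p = 0.00129), or -0.57 without vehicle number 2, still called. Cox4i1 (-0.29), Cox6a1 (-0.45), Cox6b1 (-0.40), Cox7a2 (-0.25), Cox7b (0.32), Cox7a2l (0.22), Ndufa4 (0.09), Cox5a (-0.33), Cox5b (-0.38) and Cox6c (-0.05) had adjusted p-values over 0.05 by edgeR. Cox5b-ps, listed as protein-coding, was called at -1.01 and not without vehicle number 2, where it had -0.38 (edgeR adjusted p = 0.270). Its coding sequence matches Cox5b in 384 of 387 bases, and the division of reads between the pair is uncertain.

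The other 5 of the complex IV calls were low-level tissue isoforms, each far below its common paralogue in both tissues. Cox7a1 and Ndufa4l2 passed the filter in both, while Cox6b2, Cox6a2 and Cox4i2 passed through the kidney alone, so their fitted fold changes are given as a description without a p. Cox7a1 measured 2.59, 0.331, 3.91 and 0.483 FPKM in vehicle livers. In vehicle kidneys it measured 9.43, 29.3, 9.15 and 10.99 FPKM, above every liver, with a log2 fold change of -3.00 (SE 0.87, edgeR adjusted p = 0.00535), a call lost without vehicle number 2. Cox6b2 measured 0, 0.364, 0.115 and 1.07 FPKM in livers, from 0 to 18 counts. In kidneys it measured 3.81, 15.6, 4.32 and 4.92 FPKM, from 106 to 417 counts, and its log2 fold change was -4.17 (SE 0.84). Ndufa4l2 measured 2.62, 2.26, 1.39 and 1.91 FPKM in livers. In kidneys it measured 2.71, 11.02, 3.27 and 4.09 FPKM, above every liver by a narrow margin, with a log2 fold change of -1.37 (edgeR adjusted p = 0.0109), a call also lost without that number. Of its exon bases, 75.2% lie in Shmt2 on the other strand, a gene at a mean of 295 CPM in vehicle livers and 287 CPM in vehicle kidneys.

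Cox6a2 and Cox4i2 were lower still. Cox6a2 had 0 counts in every vehicle liver and 40, 34, 60 and 17 counts in the vehicle kidneys. With a floor of 3 counts per library, kidney was at least 7.56-fold higher. Cox4i2 had 2, 3, 12 and 12 counts in vehicle livers and 22, 74, 29 and 22 in vehicle kidneys (log2 fold change -1.67, and -0.84 without vehicle number 2). Cox8b had 0 counts in all vehicle livers and 0 to 6 in the vehicle kidneys. Markers of other cell types also differed between the tissues. The 12 skeletal muscle markers summed to 51.8 to 87.4 CPM in vehicle kidneys and 6.13 to 8.44 CPM in vehicle livers. Pvalb, which the distal tubule also expresses, held 42.1 to 72.2 CPM of this in kidneys and 0 in livers, while Ckm was at 0 in all 8 libraries and Acta1 had at most 6 counts. The 7 mural cell markers, for pericytes and smooth muscle, summed to 137 to 178 CPM in vehicle kidneys and 50.3 to 61.2 CPM in vehicle livers. The part of these cell types in the isoform levels was not tested. The testis isoforms Cox7b2 and Cox8c had at most 2 counts in any library, and the 4 testis markers were at 0 throughout.

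The regions just upstream of these paralogues differ in sequence. The 150 bases before the start of the Ensembl canonical transcript are shown for 4 pairs of complex IV isoforms whose levels differ, read 5′ to 3′ on the strand of the gene from GRCm39 with GENCODE starts, the common isoform first. Capitals mark CG dinucleotides, which are dense at the promoters of most broadly expressed genes. The regions are Cox6a1 (chr5:115487041-115487190, minus strand), Cox6a2 (chr7:127805560-127805709, minus strand), Cox8a (chr19:7194965-7195114, minus strand), Cox8b (chr7:140480360-140480509, minus strand), Cox7a2 (chr9:79667163-79667312, minus strand), Cox7a1 (chr7:29883419-29883568, plus strand), Cox6b1 (chr7:30325617-30325766, minus strand) and Cox6b2 (chr7:4756036-4756185, minus strand).
Cox6a1: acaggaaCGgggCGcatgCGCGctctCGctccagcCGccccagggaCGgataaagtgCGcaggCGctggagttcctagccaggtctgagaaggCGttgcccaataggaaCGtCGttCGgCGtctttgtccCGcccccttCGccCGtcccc
Cox6a2: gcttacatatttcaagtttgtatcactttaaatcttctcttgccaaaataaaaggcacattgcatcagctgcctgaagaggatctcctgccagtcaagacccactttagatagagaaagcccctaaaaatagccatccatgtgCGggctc
Cox8a: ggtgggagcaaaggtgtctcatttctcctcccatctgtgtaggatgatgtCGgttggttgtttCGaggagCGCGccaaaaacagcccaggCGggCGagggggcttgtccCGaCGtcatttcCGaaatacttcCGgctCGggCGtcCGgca
Cox8b: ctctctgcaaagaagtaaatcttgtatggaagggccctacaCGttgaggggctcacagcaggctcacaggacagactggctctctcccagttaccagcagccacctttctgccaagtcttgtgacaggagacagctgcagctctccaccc
Cox7a2: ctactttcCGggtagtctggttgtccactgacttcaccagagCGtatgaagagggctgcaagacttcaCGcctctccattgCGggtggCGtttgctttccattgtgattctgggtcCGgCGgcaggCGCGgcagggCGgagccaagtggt
Cox7a1: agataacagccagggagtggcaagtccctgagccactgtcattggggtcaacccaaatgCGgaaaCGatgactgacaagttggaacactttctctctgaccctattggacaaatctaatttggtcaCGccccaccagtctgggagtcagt
Cox6b1: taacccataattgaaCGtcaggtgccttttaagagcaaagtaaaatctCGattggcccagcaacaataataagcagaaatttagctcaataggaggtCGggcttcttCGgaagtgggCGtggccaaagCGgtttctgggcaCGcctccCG
Cox6b2: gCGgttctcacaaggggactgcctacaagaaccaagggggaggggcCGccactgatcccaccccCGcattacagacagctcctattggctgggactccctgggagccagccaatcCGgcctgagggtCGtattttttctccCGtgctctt

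The capitals number 17 in Cox6a1 and 1 in Cox6a2, 13 in Cox8a and 1 in Cox8b, 10 in Cox7a2 and 3 in Cox7a1, and 8 in Cox6b1 and 6 in Cox6b2. The last pair differed least, and over the wider window of 250 bases before to 50 after the start it held 11 and 13. In that wider window Cox4i1 held 45 CG dinucleotides and Cox4i2 14, and Ndufa4 held 14 and Ndufa4l2 3. Cox7b and its testis paralogue Cox7b2 went the other way, with 5 and 7. The median was 16 over the 90 members and 11 over 21651 protein-coding promoters, with GC contents of 55.0% and 54.3%. Literal matches on either strand were counted for 5 motifs, none of which contains another. The NRF1 motif GCGCATGCG occurred in 6 of 90 members (6.67%, against 2.44% of all promoters) and the YY1 motif AAGATGGC in 6 (6.67% against 2.48%). The ETS motif CCGGAAGT occurred in 5 (5.56% against 4.36%), the estrogen-related receptor motif TCAAGGTCA in 1 (1.11% against 0.476%) and TATAAA in 13 (14.4% against 13.2%). A match is only a match of letters within this window.

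Shares within a family do not depend on how libraries are scaled. The share of each tissue isoform was taken in the summed FPKM of its family, with each library as 1 value and whether or not the isoform passed the filter. In vehicle mice Cox7a1 made up 0.905% ± 0.83 of its family in liver (SD, n = 4) and 5.61% ± 1.3 in kidney (SD, n = 4). Cox6b2 made up 0.106% in liver and 1.43% in kidney, Ndufa4l2 0.334% and 0.841%, Cox4i2 0.0552% and 0.143%, and Cox6a2 0% and 0.170%. For all 5 the livers lay below the kidneys with no overlap, and each had a two-sided exact permutation p of 0.0286, the smallest that 4 against 4 can give, or 0.0514 adjusted over the 9 shares tested. Cox8b made up 0% in liver and 0.00397% in kidney (two-sided exact permutation p = 0.429, adjusted 0.551). The 3 genes of the c subunit encode the same mature protein behind different import sequences, and no difference between the tissues in their shares passed the test. Atp5mc3 made up a mean of 48.6% in both (SD 2.04 in liver and 6.35 in kidney), Atp5mc1 39.9% in liver and 38.9% in kidney, and Atp5mc2 11.5% and 12.5%. Their exact permutation p-values were 1, 0.8 and 0.314. The kidney means rest on vehicle replicate 2, with 39.2% Atp5mc3 and 48.2% Atp5mc1. The other vehicle kidneys held 50.4 to 53.2% Atp5mc3 and 34.2 to 37.8% Atp5mc1.

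**Figure D3:**
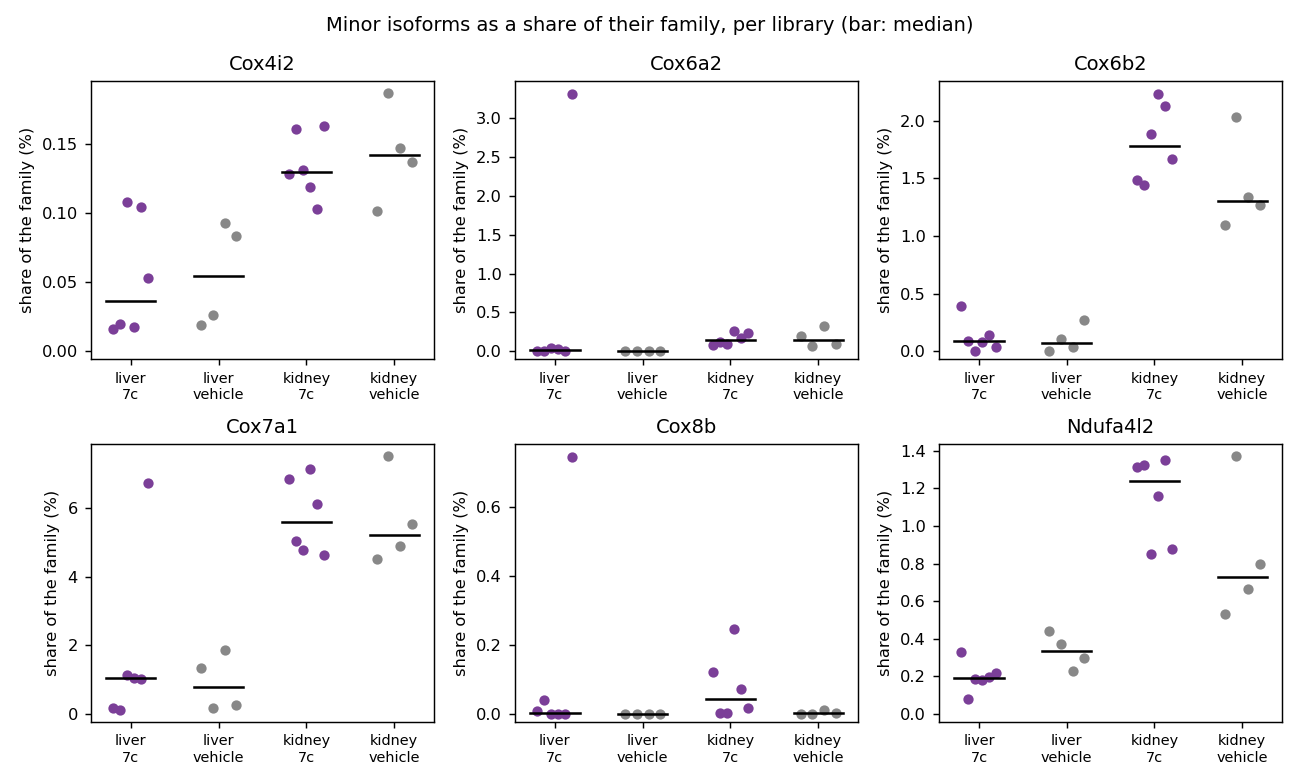
Share of each of 6 tissue isoforms in the summed FPKM of its family, in percent, one point per library and a bar at the median of each of the 4 groups. Vehicle kidneys lie above vehicle livers for Cox7a1, Cox6b2, Cox6a2, Cox4i2 and Ndufa4l2, and liver 7c replicate 6 stands apart for Cox6a2 (3.32%), Cox7a1 (6.73%) and Cox8b (0.746%).

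In liver, 7c changed no member past the threshold. Of 82 members tested, 0 were called by edgeR (0.00666% of all genes were), by DESeq2 or by limma-voom, and 2 had an unadjusted p under 0.05, both higher with 7c, where 1.81% of all genes had such a p in that direction. No member had all 7c libraries above all vehicle libraries (0.32% of all genes did), and none had all below (0.4% of all genes). The fitted values leaned one way, with 71 of 82 members above 0 and a median log2 fold change of 0.09, against 7563 of 15012 genes and a median of 0.0017 over all genes. The median was 0.11 in complex I (30 of 37 above 0), 0.047 in complex II (3 of 4), 0.069 in complex III (8 of 8), 0.10 in complex IV (12 of 15) and 0.085 in complex V (18 of 18). Cytosolic ribosomal protein genes had a like median of 0.092, with 73 of 93 above 0. Without 7c replicate 3, the highest liver in most members, the median fell to 0.033, and without 7c replicate 2, the lowest, it was 0.15 with 11 of 82 members at an unadjusted p under 0.05 (5.2% of all genes, against 3.76% with all libraries). With a trend on transcript length removed, 64 members were above 0 and the median was 0.044.

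Ndufb7, an accessory subunit of the membrane arm of complex I, had the lowest p in liver. It measured 83.5, 61.0, 77.0, 67.2, 61.7 and 72.0 CPM with 7c. With vehicle it measured 61.2, 56.2, 58.8 and 55.7 CPM, so that 7c replicate 2 lay just under the highest vehicle liver and the other 5 above it. The log2 fold change was 0.28 (SE 0.10), with an edgeR adjusted p of 0.9996. Uqcr11, a small complex III subunit, measured 130 to 216 CPM with 7c (median 142) and 99.4, 105, 132 and 149 CPM with vehicle, with overlapping groups. Its log2 fold change was 0.37 (SE 0.16), with the same edgeR adjusted p of 0.9996. The c-subunit gene Atp5mc1 had 0.23 (SE 0.13), Ndufb6 0.24 (SE 0.14), Atp5mj 0.21 (SE 0.12) and Ndufa13 0.21 (SE 0.12). The most negative, Ndufa4l2, had -0.59 (SE 0.42), and its family share was 0.199% with 7c and 0.334% with vehicle (two-sided exact permutation p = 0.0476, adjusted 0.3 over the 18 shares tested).

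Of the members fixed by function, none was called in liver. Atp5f1b measured 802 to 1113 FPKM with 7c (mean 980 ± 108, SD, n = 6) against 909 to 960 with vehicle, a log2 fold change of 0.05 (SE 0.10). Sdha measured 256 to 289 FPKM with 7c and 250 to 293 with vehicle, a log2 fold change of 0.0023 (SE 0.08). Ndufs1 (-0.03), Ndufv1 (0.02), Ndufab1 (-0.04), Sdhb (0.09), Sdhc (0.10), Sdhd (-0.07), Uqcrc1 (0.09), Uqcrc2 (0.05) and Uqcrfs1 (0.05) were not called. In complex IV, Cox4i1 had 0.10, Cox5a 0.07, Cox5b 0.14, Cox6a1 0.16, Cox6b1 0.08, Cox6c 0.11, Cox7a2 0.03, Cox7a2l -0.14, Cox8a 0.13 and Ndufa4 0.11, and Atp5if1 had 0.20, none of them called by edgeR.

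One 7c liver carried the muscle isoforms of complex IV. Cox6a2 had 395 counts in liver 7c replicate 6 and 0, 0, 6, 4 and 0 in replicates 1 to 5, with 0 in all 4 vehicle livers. Cox8b had 150 counts there and at most 8 in any other liver, and Cox7a1 had 132 against at most 50. That library also held 6186 counts of Acta1, skeletal muscle actin (223 CPM), and 1517 of Ckm, muscle creatine kinase (54.8 CPM), while the other 9 livers held at most 2 counts of Acta1. The 12 skeletal muscle markers summed to 931 CPM in it, to 4.79 to 8.95 CPM in the other 7c livers and to 6.13 to 8.44 CPM in vehicle livers. Neither Cox6a2 nor Cox8b passed the filter in liver, Cox7a1 was not called (log2 fold change 0.90, SE 0.99), and the part of the muscle markers in these values was not tested.

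**Figure D4:**
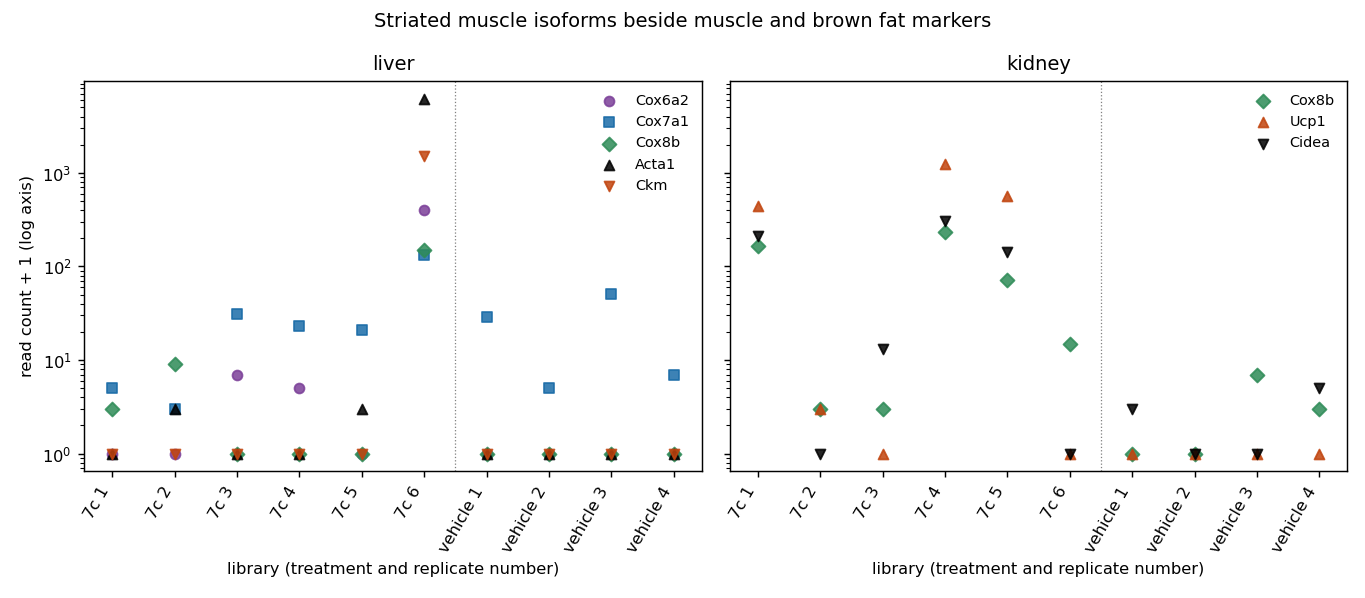
Counts plus 1 on a log axis, one point per library, of Cox6a2, Cox7a1 and Cox8b beside the muscle genes Acta1 and Ckm in liver, and of Cox8b beside the brown fat genes Ucp1 and Cidea in kidney. Liver 7c replicate 6 is high in all 5 genes of the liver panel, and kidney 7c replicates 1, 4 and 5 are high in all 3 genes of the kidney panel.

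In kidney, 7c likewise changed no member past the threshold. Of 85 members tested, 0 were called by edgeR (0.0% of all genes were), with 0 at an unadjusted p under 0.05, and 0 by DESeq2 or limma-voom. No member had all 7c kidneys above all vehicle kidneys (0.31% of all genes did) or all below (0.406%). The median log2 fold change was 0.07 with 66 of 85 above 0, against -0.0057 over all genes, and it depended on single libraries. Without vehicle replicate 2 it was 0.36, with 79 members above 0 and 29 at an unadjusted p under 0.05 (10.3% of all genes, against 2.61% with all libraries), and without 7c replicate 5 it was -0.05, with 23 above 0. Leaving out vehicle replicate 1, 3 or 4 gave 43, 35 and 43 above 0 and medians of 0.0010, -0.015 and 0.0062. With both kidneys that stood apart left out, 79 members were above 0, the median was 0.23 and 23 had an unadjusted p under 0.05 (8.56% of all genes), with 0 called by edgeR. Without the 3 kidneys with 444 or more counts of Ucp1, 6 members were above 0 and the median was -0.13. These are 7c replicates 1, 4 and 5. Replicates 4 and 5 also had the highest median deviations of members among the 7c kidneys (0.20 and 0.62). The sign of the kidney median therefore changed with the libraries kept.

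By complex, the kidney medians were 0.082 in complex I (33 of 37 above 0), 0.0074 in complex II (2 of 4), 0.067 in complex III (5 of 8), 0.079 in complex IV (14 of 18) and 0.063 in complex V (12 of 18). The mtDNA-encoded subunits, which join these in the same complexes, had 0 of 13 above 0 and a median of -0.26, and 0 of 13 were called or had an unadjusted p under 0.05 by edgeR. Their median deviation was -0.67 in 7c replicate 5, -0.22 to 0.25 in the other 7c kidneys and 0.064 to 0.22 in the vehicle kidneys. Sdha measured 182 to 217 FPKM with 7c (mean 204 ± 13, SD, n = 6). With vehicle it measured 207 to 238 (mean 225 ± 14, SD, n = 4), and the groups overlapped, with a log2 fold change of -0.16 (SE 0.10). Ndufs1 measured 45.1 to 61.1 FPKM with 7c and 47.0 to 65.1 with vehicle, with a log2 fold change of -0.17 (SE 0.12). Atp5mc3 measured 449 to 663 FPKM with 7c and 444 to 611 with vehicle, with a log2 fold change of 0.18 (SE 0.13). Its sister Atp5mc1 had 0.31 (SE 0.31) and turned to -0.05 without those 3 kidneys. Ndufs3, a core subunit of complex I, had 0.23 (SE 0.25) and likewise turned to -0.05.

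The remaining named members in kidney were not called. Atp5f1b had a log2 fold change of -0.04 (SE 0.10), Atp5if1 -0.04, Uqcrfs1 -0.03, Uqcrc1 0.11, Uqcrc2 -0.12, Uqcrb -0.10, Sdhb 0.06, Sdhc 0.05, Sdhd -0.03, Ndufv1 0.10, Ndufab1 0.02, Ndufb4 0.11 and Ndufb6 0.12. In complex IV, Cox4i1 had 0.19 (SE 0.27), Cox5a 0.08, Cox5b 0.08, Cox6a1 0.14, Cox6b1 0.06, Cox6c 0.06, Cox7a2 0.19, Cox7a2l -0.03, Cox7b 0.06, Cox8a 0.18 and Ndufa4 -0.03. The tissue isoforms had larger errors, with 0.43 for Cox6a2 (SE 0.48), 0.30 for Cox6b2 (SE 0.42), 0.16 for Cox7a1 (SE 0.37), 0.33 for Ndufa4l2 (SE 0.37) and -0.04 for Cox4i2 (SE 0.38). None of the 9 isoform shares in kidney differed at an adjusted p under 0.05, and the lowest, Atp5mc2 with 11.6% against 12.5%, had a two-sided exact permutation p of 0.0381 (adjusted 0.3).

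**Figure D5:**
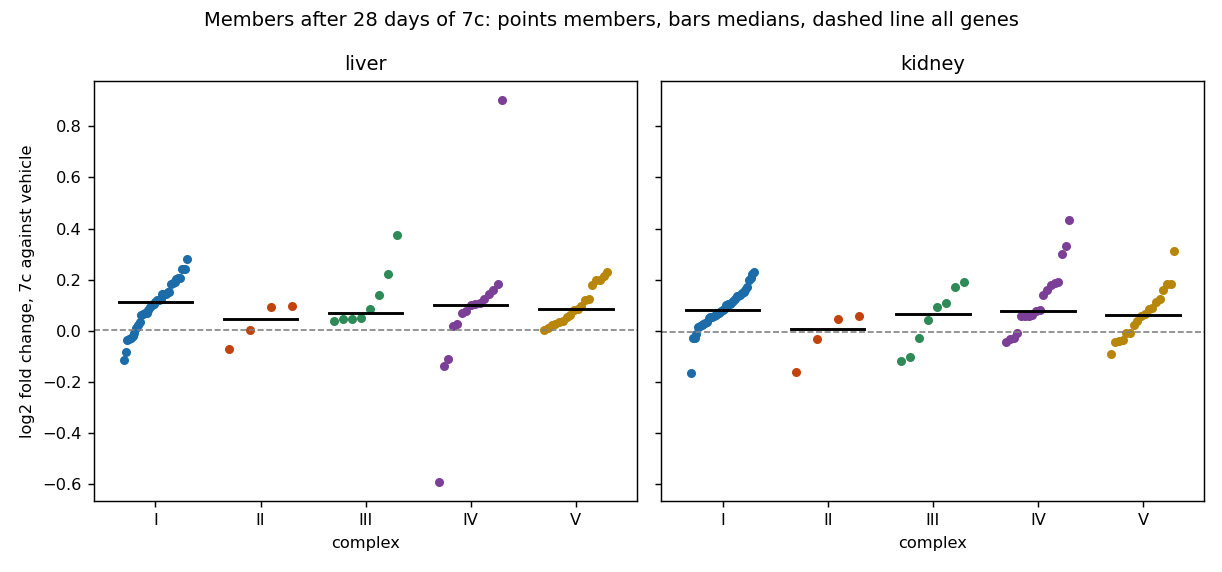
Log2 fold change of 7c over vehicle for each member, by complex, in liver and kidney, with a bar at the median of each complex and a dashed line at the median of all genes. Points beyond 0.3 on either side are Uqcr11, Cox7a1 and Ndufa4l2 in liver and Cox6a2, Ndufa4l2 and Atp5mc1 in kidney, with medians of 0.047 to 0.11 in liver and 0.0074 to 0.082 in kidney.

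Cox8b followed brown fat genes across the kidneys. It had 166, 2, 2, 234, 70 and 14 counts in 7c kidneys 1 to 6 and 0, 0, 6 and 2 in the vehicle kidneys. Ucp1, the brown fat uncoupling protein, had 444, 2, 0, 1229, 567 and 0 counts in the 7c kidneys and 0 in the vehicle kidneys. Cidea had 210, 0, 12, 306, 140 and 0 against 2, 0, 0 and 4. The same 3 7c kidneys, replicates 1, 4 and 5, were the highest for each gene. The 5 brown fat markers summed to 1.71 to 44.4 CPM in 7c kidneys and 1.33 to 3.11 CPM in vehicle kidneys, and the 7 fat markers to 58.5 to 154 CPM and 37.4 to 49.6 CPM. Cox8b did not pass the filter in kidney, so no test was run on its counts, and its share of the Cox8 family was 0.0776% with 7c and 0.00397% with vehicle (two-sided exact permutation p = 0.167, adjusted 0.429). The part of the fat markers in these values was not tested.

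The effect of 7c was compared between tissues as an interaction. For the 82 members tested, 0 were called by edgeR (0.00706% of all genes were) and 0 had an unadjusted p under 0.05, with DESeq2 and limma-voom also giving 0 called. The median difference of the log2 fold changes, liver minus kidney, was 0.019. It was -0.27 without vehicle number 2, with 3 members at an unadjusted p under 0.05 (6.08% of all genes), and 0.16 without 7c number 5, and 0 were called either way. Ndufa4l2 had the value farthest from 0, at -0.92 (SE 0.56, edgeR adjusted p = 0.9999), with -0.59 in liver and 0.33 in kidney, followed by Cox7a1 at 0.74.

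The factors that assemble these complexes were compared between the vehicle tissues as well. Of 18 tested assembly factors of complex IV, 8 were called by edgeR (57.9% of all genes were) and all 8 were higher in liver (26.8% of all genes). The 8 factors were Cox11 (log2 fold change 1.14) and Sco1 (0.62), which deliver copper, Taco1 (0.84) and Lrpprc (0.68), which act on mitochondrial translation and transcripts, Cox16 (0.93), Coa7 (0.81), Surf1 (0.55) and Coa5 (0.51). Without vehicle number 2, all 8 were still called, among 9 higher in liver and 1 in kidney. Complex I assembly factors gave 3 calls in each direction among 15. Complex II factors gave 1 in each, Sdhaf3 at 1.28 and Sdhaf1 at -1.22, and those of complexes III and V gave 0 called among 6 and 4 by edgeR, with 0 and 2 at an unadjusted p under 0.05. Of all 47 assembly factors tested, 12 were higher in liver and 4 in kidney (34.0% called, against 57.9% of all genes). In a list of cytochrome c, the carriers that feed complex V, Cyc1 and Hccs, 4 of 6 tested were called higher in kidney (31.0% of all genes). Cyc1 (-0.36), a cytochrome of complex III, and Hccs (0.43), which attaches heme to cytochrome c, were not called. Slc25a4, the ADP/ATP carrier of muscle and other tissues, had -4.72, the phosphate carrier Slc25a3 -0.80, Cycs, which shuttles electrons to complex IV, -0.65, and Slc25a5, the widely used ADP/ATP carrier, -0.59, and all 4 were called without vehicle number 2. Of the mtDNA-encoded subunits, 7 of 13 (53.8%) were called, against 57.9% of all genes. All 7 were higher in kidney (31.0% of all genes), and the median over the 13 was -0.81.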

How the data were processed

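Polyadenylated RNA from 10 livers and 10 kidneys was made into libraries with the TruSeq Stranded mRNA kit. The deposited file holds raw counts per gene, made by the authors from reads aligned to GRCm39 with STAR 2.7.11b and counted with featureCounts 2.0.6, per the labels and the submitters' processing notes. The strand setting of the counting is not given in the sources used here. Atp5mk, whose exon bases lie wholly within genes of the other strand, had 1870 counts or more in every library. Among gene counts from 1 to 20, 78.6% were even, against 53.7% above 1000, and whether the mates of a read pair were counted singly is not given in the sources used here. No column of counts was without a sample.

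Groups and replicate numbers came from the sample titles. The annotation was GENCODE vM39. A gene was kept in a tissue when 50% or more of its libraries held 10 counts or more. Tests used edgeR 4.0.16 quasi-likelihood fits with TMM scaling in R 4.3.3, within each tissue for 7c and over all 20 libraries for the tissue comparison and the interaction, with Benjamini-Hochberg adjustment over all genes tested and a threshold of 0.05. DESeq2 1.42.0 and limma 3.58.1 (voom) were alternatives. CPM are the counts scaled by TMM within the tissue. FPKM are counts scaled by TMM over 20 libraries and divided by the length of the Ensembl canonical transcript, chosen after the annotation was seen because union exonic lengths include retained introns. Shares of isoforms used two-sided exact permutation tests. The replicates are numbered as biological replicates, and p-values measure the spread between these libraries. Scripts were tested on simulated data in Python 3.11.15 and R.

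The named genes were the isoform families, a list of subunits fixed by function, up to 5 members with the lowest p in each direction of each comparison, the 5 with the highest correlation between tissues, and the 2 highest and 2 lowest members of each complex per length. One gene that this rule names is not reported here. The members and lists were chosen with earlier results of these data known. Of the exon bases of the canonical transcripts, at least 50% lie in another gene for 12 of the 90 members, and 47 members have no such overlap.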

Additional observations from a re-analysis of the deposited data

Results flagged for a closer look

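Of 92 sets of values checked within a group, 13 had a highest or lowest library set apart from the others by Dixon's criterion. Its rate of about 1 in 20 holds for independent, normally distributed sets. These sets share libraries and members, so the count of 13 cannot be set against that rate. In the 6 7c livers, replicate 6 was the high library for the family shares of Cox6a2 (3.32%, next 0.0392%), Cox7a1 (6.73%, next 1.15%) and Cox8b (0.746%, next 0.0404%), and these go with its skeletal muscle counts, whose part was not tested. Replicate 1 was the high library for Cox6b2 (0.389%, next 0.138%), which rests on 24 counts.

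In the 4 vehicle kidneys, replicate 2 was the high library for the median log2 deviation of all members (0.58, next -0.22), of complex I (0.58), of complex III (0.64) and of complex V (0.57). It was also the high library for Ndufv3 (499.5 CPM, next 203), Uqcrq (364 CPM, next 163), Ndufb7 (227 CPM, next 95.5) and Atp5if1 (144 CPM, next 79.2). The median of complex II was not set apart in this library, at 0.082. Its member Sdhb was highest there, at 138 FPKM against 75.7 FPKM in the lowest vehicle kidney. In the 4 vehicle livers, replicate 2 was the low library for complex V, with a median log2 deviation of -0.21 and the next at -0.031.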

How the results depend on the processing

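With 7c, 0 members were called in liver under 20 alternatives and in kidney under 21. Leaving out each replicate in turn gave 62 to 74 members above 0 in liver, with medians of 0.033 to 0.15, and 23 to 79 in kidney, with medians of -0.05 to 0.36. The interaction had 0 called in each of its alternatives. Between tissues, leaving out each number gave 20 to 33 called, the lowest without vehicle number 2, where 54.5% of all genes were called. There 24 of 85 signs turned, and 10 were higher in kidney and 10 in liver instead of 25 and 5. The other settings gave 22 to 36, with 34 by RLE size factors and 36 by DESeq2. Of the 27 called members that passed the filter in both tissues, 10 were called under all 16 alternatives. RLE moved the median of all genes to -0.19 and of members to -0.32.

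With 7c, no member was called, and many signs turned. In kidney 62 of 85 members turned without the 3 kidneys with the most Ucp1 counts and 45 without 7c replicate 5. Without vehicle replicate 3, 31 turned, and with the replicate block 15 did. In liver at most 11 of 82 turned in any setting. The replicate block of these fits joined 7c and vehicle libraries of the same number, which came from different animals. Other named members are within these counts. Of the members with the lowest p in each direction (up to 5 each way in each tissue), the following turned. In liver, Cox5b-ps went from -0.11 to 0.031 with the replicate block, and leaving out each replicate gave -0.25 (vehicle 2) to 0.086 (vehicle 4). In kidney, Atp5mc1 went to -0.053 and Ndufs3 to -0.050 without those 3 kidneys, and Cox6a2 went to -0.088 with the replicate block. Uqcrb went to 0.070 without both kidneys that stood apart, and leaving out each replicate gave -0.16 (vehicle 1) to 0.091 (vehicle 2). The settings that leave out these libraries, that remove the length trend and that use union exonic length were chosen after seeing the data. The cause of these turns was not tested.

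The labels give replicate numbers but no animal that ties a liver to a kidney. Same-numbered libraries of the tissues had correlated deviations of 0.011 to 0.26, and 7 of 10 correlated best with their own number in both directions, a hint from the data and not from the design. Since 3 of the 10 correlations were under 0.1, the numbers were not taken to pair the samples. With treatment and replicate number as a block, 22 members were called between tissues instead of 30 (without Ndufa10, Ndufa11, Ndufa13, Sdha, Cox4i2, Atp5f1c, Atp5f1d and Atp5mj). The 7c fits within a tissue used another block, which joined 7c and vehicle libraries of the same number. Those are different animals, and 7c replicates 5 and 6 have no vehicle library of their number, so that block has no basis in the design. With it, 68 of 82 members in liver and 55 of 85 in kidney were above 0. Neither block changed any other call: none was added with 7c or in the interaction. Within-group spread in kidney, with an SD of 0.40 (log2) for the median member, limits what 6 against 4 libraries can show there.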

Other observations

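Deviations of same-numbered livers and kidneys from their group means were correlated for each member over the 10 numbers. These correlations have a meaning only if a number stands for the same animal in both tissues, which the labels do not give. Of 82 members, 0 were called (0.0% of all 14163 genes were) and 8 had an unadjusted exact permutation p under 0.05 (6.99% of all genes). That count went from 1 without 7c replicate 3 or vehicle replicate 2 to 14 without vehicle replicate 1 and 26 without 7c replicate 2. The median r was -0.42 over members and 0.029 over all genes, and it ranged from -0.59 to -0.31 when each number was left out. The lowest r of a member was -0.74. The naming rule takes members from the highest r, so those named here do not stand for the rest. Ndufs1 had a positive correlation (r = 0.46, rho = 0.45, exact permutation p = 0.160 and 0.191, adjusted p for r 0.832), with r = 0.59 without the 2 numbers farthest from the median in liver. Ndufb2 (r = 0.39, rho = 0.54), Atp5pb (r = 0.35, rho = 0.28) and Sdhd (r = 0.31, rho = 0.54) had exact permutation p-values for r of 0.244, 0.307 and 0.504 and for rho of 0.119, 0.406 and 0.196, and none was called. Without the 2 farthest numbers their r was 0.46, -0.075 and 0.22. The members of a library move together, so these values are not independent of one another.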
